A study of Mus musculus with 1 sample.

Results

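The genes described here are 10 mouse genes of epithelial-mesenchymal transition, chosen by symbol from the platform's annotation, out of 18194 genes measured on 1 array. They comprise 7 transcription factor genes that induce the transition (Zeb1, Zeb2, Snai1, Snai2, Twist1, Twist2 and Prrx1) and 3 genes of mesenchymal products (Vim, Fn1 and Sparc). They were read by 28 of the array's 34945 probe sets that name 1 gene, and no probe set naming several genes held any of them. The sample was a mouse lung cancer cell line grown from a KR tumor, labelled KR Primary, of strain B6/J, kept in RPMI1640 with serum and collected near confluence, for which the labels name no treatment. The labels do not spell out KR, although the series title names kras, and they do not say whether the line was 1 clone. There was 1 sample and no replicate or control, so the values carry neither a replicate error nor a p-value, and every comparison is with other probe sets of the same array.

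In epithelial-mesenchymal transition, epithelial cells give up their junctions and keratins and take on a motile, matrix-producing form. The SNAI and ZEB zinc finger proteins bind E-boxes in the promoters of epithelial genes such as Cdh1, the gene of E-cadherin, and repress them with the help of cofactors. The TWIST proteins are basic helix-loop-helix factors that also bind E-boxes, and PRRX1 is a homeodomain factor of embryonic mesenchyme. Vimentin, fibronectin and SPARC are, in that order, a cytoskeletal filament and a pair of secreted matrix proteins commonly read as signs of the mesenchymal state.

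A probe set reports hybridization in arbitrary units, and probe sets differ in brightness, so signals are not compared between genes as amounts of RNA. Each was set against 126 probe sets of 112 genes of smell, taste and hair (olfactory, vomeronasal and bitter taste receptors, and keratin-associated proteins), whose median was 6.41. The 95th percentile of that set, 16.8, is called the background line, and its highest probe set, 60.6, the upper limit. The upper limit rests on that 1 probe set, since the next read 42.2 and 21.0. A gene counted as above a threshold when any of its probe sets exceeded it. By this rule 63.3% of all genes exceeded the line and 47.5% the upper limit, and single probe sets passed in 60.9% and 41.1% of cases. The cells' labelled type was checked against its markers. All 7 epithelial markers were above the upper limit, with signals from 1150 to 7600.2, whereas the lung lineage gene Nkx2-1 read 7.66 and the club cell gene Scgb1a1 1.38, both below the line, and the surfactant gene Sftpc read 21.1 and 5.49. These 3 lung genes stand outside the fixed lists and were added to the check. The 7 epithelial markers are also among the 24 epithelial genes reported below, so those results overlap. In a bulk sample, fewer cells with a transcript and less of it per cell cannot be told apart.

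Fn1 and Sparc stood apart from the other 8 genes. None of the 7 inducer genes gave a signal above the upper limit, and 2 of them, Zeb2 and Snai2, were above the line on 1 probe set each. All 3 product genes were above the line, but only Fn1 and Sparc were above the upper limit. In total 5 of 10 genes (50%) exceeded the line and 2 of 10 (20%) the upper limit, beside 63.3% and 47.5% of all genes. With the line at the 99th percentile of the background set (36.9), only Fn1 and Sparc were above it. At the 90th (14.1) Snai1 and Prrx1 joined Zeb2 and Snai2, giving 4 of 7 inducers. Of all one-gene probe sets, 52.0% read at or below 36.9 and 35.5% at or below 14.1. Of the 20 inducer probe sets, 18 were at or below the line and 11 were below the median of the background set. Of the 8 product probe sets, 5 were above the line and none was below that median. Beside these counts, 20.5% of all 34945 one-gene probe sets read at or below 6.48, just over that median of 6.41. With only 8 product probe sets, a difference from that share was not tested. The median highest signal was 14.3 over the inducers and 48.3 over all genes.

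**Figure D1:**
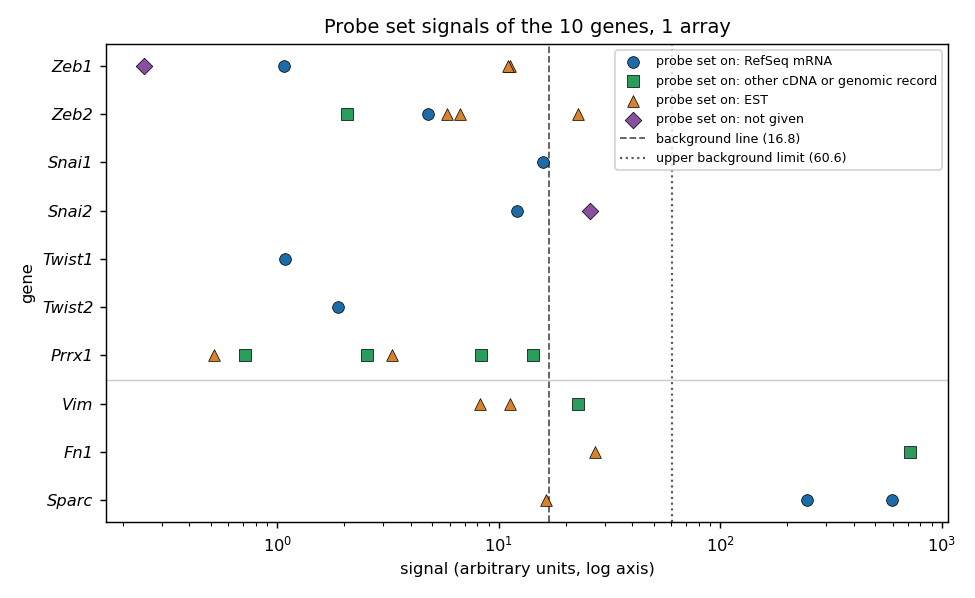
Signal of every probe set of the 10 genes on 1 array (log axis, arbitrary units), with marker shapes for the kind of sequence record each probe set was designed on, the dashed background line at 16.8 and the dotted upper limit at 60.6. Points above the upper limit belong only to Fn1 and Sparc, and the 7 inducer genes have 2 points between the thresholds.

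The distribution of the inducer signals lay over that of the background set. Inducer probe sets had a median of 5.32 and ran from 0.251 to 25.7, and background probe sets had a median of 6.41 and ran from 0.142 to 60.6. All 34945 one-gene probe sets had a median of 32.1. At the line, 10% of the inducer probe sets lay above, beside 60.9% of all probe sets. Members just around the thresholds were Sparc at 16.3 and Vim at 22.8 on either side of the line, and Fn1 at 27.1 and Sparc at 245 on either side of the upper limit.

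**Figure D2:**
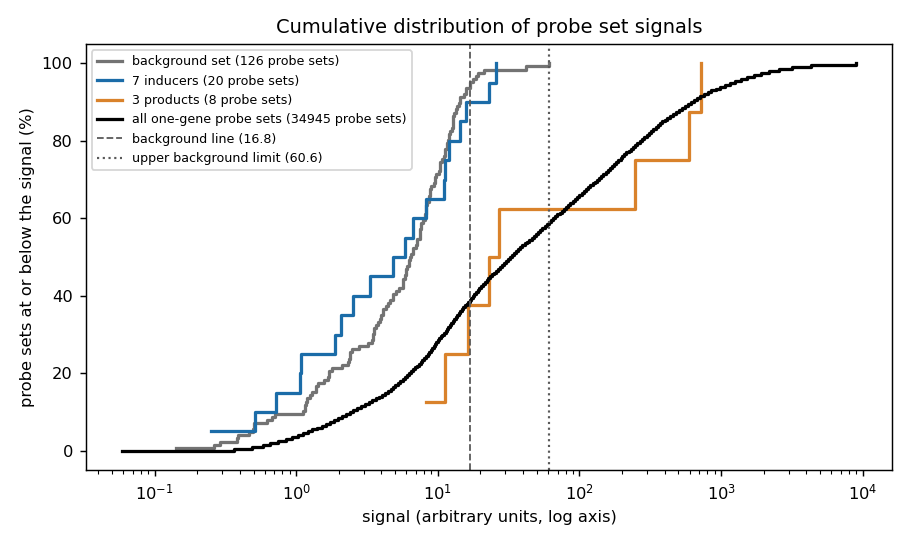
Cumulative share of probe sets (vertical axis, percent) at or below a given signal (log axis, arbitrary units) for the 126 background probe sets, the 20 probe sets of the inducers, the 8 of the products and all 34945 one-gene probe sets, with the line at 16.8 and the upper limit at 60.6. The inducer curve runs near the background curve and ends at 25.7, and the product curve reaches 717.

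ZEB1 and ZEB2 are large zinc finger and homeodomain repressors, held down in epithelial cells by the microRNAs of the miR-200 family. Zeb1 read 11.3, 10.96, 1.07 and 0.251 on its 4 probe sets, all below the line. The highest of these was reached or exceeded by 29 of the 126 background probe sets. Zeb2 read 22.8, 6.65, 5.85, 4.79 and 2.06 on its 5 probe sets. Only the first, designed on an expressed sequence tag (EST), a short single read of a cDNA, was above the line, at 1.36 times its value, and 2 background probe sets were at or above it. The Zeb2 probe set designed on a RefSeq mRNA record read 4.79, a value that 77 background probe sets reached. Of genes with as many probe sets as these, 87.5% of 1093 genes with 4 and 90.3% of 463 genes with 5 were above the line. Zeb1 is thus among the minority of genes with 4 probe sets that had none above the line. Only 1 of its 4 was designed on a RefSeq mRNA record, the one that read 1.07.

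SNAI1 and SNAI2, also known as Snail and Slug, act early in the transition and repress Cdh1 directly. Snai1 read 15.8 on its only probe set, just under the line at 0.941 times its value, and 10 background probe sets were at or above it. Snai2 has a pair of probe sets, which read 25.7 and 12.02. The higher one has a name ending in _x_at, which marks probes that can also bind other transcripts, and its sequence record is not given, whereas the lower was designed on the RefSeq mRNA record. Their family member Snai3, which was not among the 10 genes, read 121 and 66.9, so that both of its probe sets, 1 of them on a RefSeq mRNA record, were above the upper limit. Of the 3 SNAI genes, Snai3 alone was above the upper limit on this array. The promoter of Snai1 is shown because SNAI1 is known to bind an E-box in its own promoter and limit its own transcription. The window runs from 250 bases before to 50 bases after the RefSeq transcript start, at chr2:167537945-167538244 on the plus strand of GRCm38.p6. It is printed 5′ to 3′, with the E-box CACCTG in capitals.
Snai1: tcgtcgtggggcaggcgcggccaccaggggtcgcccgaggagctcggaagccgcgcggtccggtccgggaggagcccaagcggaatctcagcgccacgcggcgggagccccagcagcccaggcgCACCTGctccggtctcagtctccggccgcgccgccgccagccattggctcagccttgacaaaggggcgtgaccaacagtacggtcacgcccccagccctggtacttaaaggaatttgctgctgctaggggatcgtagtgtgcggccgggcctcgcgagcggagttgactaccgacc
The box begins 126 bases before the start, and the window held no other sequence of the form CANNTG.

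TWIST1 and TWIST2 specify mesoderm and its derivatives in the embryo. Twist1 read 1.08 and Twist2 1.88 on their single probe sets, both designed on RefSeq mRNA records. These signals were reached or exceeded by 114 and 99 of the 126 background probe sets. Among the 9185 genes with 1 probe set, 48.3% were above the line. Both TWIST signals thus lay in the lower part of the background set. Their windows and those of Prrx1 and Zeb2 held no CANNTG.

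PRRX1 takes part in limb and craniofacial mesenchyme and has been linked to transition in embryos and tumors. Prrx1 read 14.3, 8.31, 3.29, 2.53, 0.718 and 0.515 on its 6 probe sets. None was above the line, although 89.3% of the 244 genes with 6 probe sets were. Its paralog Prrx2 read 210 on its only probe set, above the upper limit. The PRRX genes therefore divided as the SNAI genes did, with signal above the upper limit from the family member outside the 10 genes.

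The kind of record behind each probe set bears on how a low signal reads, because probe sets on ESTs can lie in introns or in alternative transcript ends. Of the inducers, 6 have a probe set designed on a RefSeq mRNA record, namely all but Prrx1. These 6 read from 1.07 to 15.8 with a median of 3.34, and 0 of 6 was above the line, beside 60.3% of all 5891 such probe sets. Of the 7 inducer probe sets on ESTs, 1 was above the line, the Zeb2 signal of 22.8, beside 60.8% of all 17514 EST probe sets. Counted on RefSeq mRNA probe sets alone, a choice made after seeing the data, Sparc was the only 1 of 7 members so measured that was above the line.

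Vimentin is the intermediate filament that replaces keratins in mesenchymal cells. Vim read 22.8, 11.2 and 8.24 on its 3 probe sets. The first was designed on a cDNA or genomic record and lay at 1.36 times the line, and the other pair, on 1 shared EST record, lay below it. Of the 2366 genes with 3 probe sets, 82.3% exceeded the line and 67.2% the upper limit. The log2 range over the Vim probe sets was 1.47, beside a median of 3.02 over the genes with 3 probe sets, and 19.0% of those genes had a smaller range.

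Other intermediate filament genes were set beside Vim. Of 12 listed genes of the family outside the keratins, 5 (41.7%) exceeded the line and 3 (25%) the upper limit, beside 63.3% and 47.5% of all genes, with a median highest signal of 14.8. The 3 were the nuclear lamina genes Lmna at 2083 and Lmnb1 at 514, and Nes, the nestin gene of progenitor cells, at 377, 362 and 135 on its 3 probe sets. The neurofilament genes Nefm and Nefl read at most 4.69 and 5.66. Nestin was thus the 1 cytoplasmic filament gene of that list above the upper limit on this array.

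Fibronectin is a matrix glycoprotein that binds integrins on the cell surface. Fn1 read 717 on a probe set designed on a cDNA record and 27.1 on one designed on an EST. The higher signal was 42.7 times the line and 11.8 times the upper limit, while the lower was 1.61 times the line and was exceeded by 2 background probe sets. Both were above the line, which made Fn1 the only 1 of 10 genes with every probe set above it, beside 8558 of all 18194 genes. The log2 range of 4.72 between them, a 26.4-fold difference, was larger than in 90.4% of the 4694 genes with 2 probe sets, whose median range was 1.60. The size of the Fn1 signal therefore depends on which probe set is read.

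SPARC, also called osteonectin, is a secreted protein that binds collagen and modulates adhesion to the matrix. Sparc read 596, 245 and 16.3 on its 3 probe sets. The first and second, both designed on the RefSeq mRNA record, were 9.84 and 4.05 times the upper limit, and no background probe set reached them. The third, designed on an EST, lay just under the line. Of the 7 members with 2 or more probe sets, only Sparc had more than 1 above the upper limit. The share of all genes with this is not given here.

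The promoter windows of Vim and Sparc are shown as those of a product gene near background and a product gene with signal. They lie at chr2:13574061-13574360 on the plus strand and chr11:55420031-55420330 on the minus strand of GRCm38.p6, with the E-box CACCTG, or CAGGTG on the other strand, in capitals.
Vim: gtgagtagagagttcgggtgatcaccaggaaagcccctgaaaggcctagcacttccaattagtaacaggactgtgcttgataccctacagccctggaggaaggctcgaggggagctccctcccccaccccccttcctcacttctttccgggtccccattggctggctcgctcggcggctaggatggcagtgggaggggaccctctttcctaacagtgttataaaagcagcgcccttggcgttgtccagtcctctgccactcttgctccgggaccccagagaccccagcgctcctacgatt
Sparc: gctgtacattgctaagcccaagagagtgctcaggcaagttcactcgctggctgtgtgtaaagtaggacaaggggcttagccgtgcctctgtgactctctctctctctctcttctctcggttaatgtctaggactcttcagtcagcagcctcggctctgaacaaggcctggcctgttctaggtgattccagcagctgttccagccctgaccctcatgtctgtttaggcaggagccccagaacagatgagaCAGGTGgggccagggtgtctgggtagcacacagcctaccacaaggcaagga
The Vim window held no sequence of the form CANNTG at all. The Sparc window held 3, of which the 1 in capitals is CACCTG read on the opposite strand and begins at the base just before the start. Of the 7 members with a window in the RefSeq table, 2 (28.6%), Snai1 and Sparc, held CACCTG on either strand, beside 22.6% of 27025 genes. In the 250 bases before the start alone, 1 of 7 (14.3%) held it, beside 19.4% of all genes. Any CANNTG was found in the same 2 genes (28.6%), beside 74.99% of all genes.

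Across the members with more than 1 probe set, 4 of 7 had probe sets on both sides of the line, namely Zeb2, Snai2, Vim and Sparc, beside 32.9% of the 9009 genes with 2 or more. Within those 9009 genes, log2 signals of probe sets for the same gene had a median SD of 1.45, a spread to which probe brightness, transcript variants and noise all contribute. The highest signals of Zeb2, Snai2 and Vim lay above the line by less than that, at log2 values of 0.44, 0.61 and 0.44. The highest signals of Fn1 and Sparc exceeded the line by more, at log2 values of 5.42 and 5.15. Their lowest probe sets lay nearer to the line than that SD, at log2 values of 0.69 and -0.048. The log2 range over the Sparc probe sets was 5.20, a 36.7-fold difference, larger than in 82.3% of the genes with 3 probe sets.

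Other transcription factors known to drive the transition gave a mixed picture. Of 10 measured genes, 6 (60%) exceeded the line and 5 (50%) the upper limit, beside 63.3% and 47.5% of all genes, with a median highest signal of 73.4. Hmga2, a chromatin architectural protein that can induce Snai1, read 1423, 1275, 1119 and 121. Tcf3, whose products are partners of the TWIST proteins and E-box binding factors themselves, read 385, 107 and 31.6 and so was above the line on all 3 probe sets. Besides Prrx2 and Snai3, the fifth was the forkhead gene Foxq1, named after its values were seen, at 140 and 139. At the other end Foxc2 read 0.290 and Gsc, the goosecoid gene, 1.15. The factors above the upper limit were therefore Hmga2, Tcf3, Prrx2, Foxq1 and Snai3, with no member of the 7 inducers among those above it.

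The cofactors through which SNAI and ZEB proteins repress genes, and the kinases and ligases that control the stability of SNAI1 protein, gave signal throughout. Of the 16 genes, all exceeded the line and 15 (93.8%) the upper limit, beside 63.3% and 47.5% of all genes, with a median highest signal of 897. Ajuba, a LIM domain protein that joins SNAI proteins to their repressor complexes, read 2497. Ctbp2, a corepressor of the ZEB proteins, read 1931 and 905, and Csnk1a1, a casein kinase gene, read 2449 on the highest of its 5 probe sets. Btrc, the ubiquitin ligase subunit that marks SNAI1 for degradation, was the gene under the upper limit, at 47.3 on the highest of 5 probe sets. Wtip, another LIM domain gene, read 211. These genes act in many other complexes, and their signals were measured beside inducer signals within the background range.

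Most further mesenchymal products were not above the line. Of 19 measured genes, 8 (42.1%) exceeded the line and 5 (26.3%) the upper limit, beside 63.3% and 47.5% of all genes. Cald1, an actin-binding caldesmon gene, read from 20.2 to 3288 over 5 probe sets that were all above the line. Thbs1, the gene of the matrix protein thrombospondin 1, read 1532 and 502, and Axl, a receptor tyrosine kinase gene, read 1512 and 4.475. The other 2 above the upper limit, Mmp14 and Cdh2, were named after their values were seen and read 893 and 272 on their highest probe sets. Postn, the periostin gene, read 1.30, and all 3 probe sets of Lox, a collagen cross-linking enzyme gene, were at or below 3.09.

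Markers of other cell types, among them the fibroblasts and endothelial cells that make fibronectin and SPARC, were mostly near background. None of 12 fibroblast and smooth muscle genes was above the upper limit, and 2 (16.7%) were above the line, Acta2 at 25.1 and Col1a2 at 19.3, beside 47.5% and 63.3% of all genes, the shares that the endothelial and leukocyte counts are also to be read against. Their highest signals ran from 3.95 to 25.1, and none was listed at 0. Lum and Dcn were also among the further mesenchymal products, and Des among the intermediate filament genes, so those counts overlap. These genes are named only for that overlap, and none of them was above the line. Fap, a marker of activated fibroblasts, read 16.0, Pdgfrb at most 3.95 and the collagen gene Col3a1 at most 6.998. Of 9 endothelial genes, 3 (33.3%) were above the line and none above the upper limit, with Kdr at 30.3, Esam at 18.3, Cdh5 at 17.4, Vwf at 4.12 and Tie1 at 1.64. Of 9 measured leukocyte genes, 2 (22.2%) were above the line, Cd68 at 69.8 and Csf1r at 47.1, 44.3 and 29.4, and Cd68 was above the upper limit. Adgre1, Itgam and Cd3e read 15.6, 4.87 and 3.34. Signals of 717 for Fn1 and 596 for Sparc were measured beside fibroblast and endothelial marker genes that were all under the upper limit. Among the leukocyte genes Cd68 was above that limit and Csf1r above the line. Which cells gave the Fn1 and Sparc signals was not tested.

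**Figure D3:**
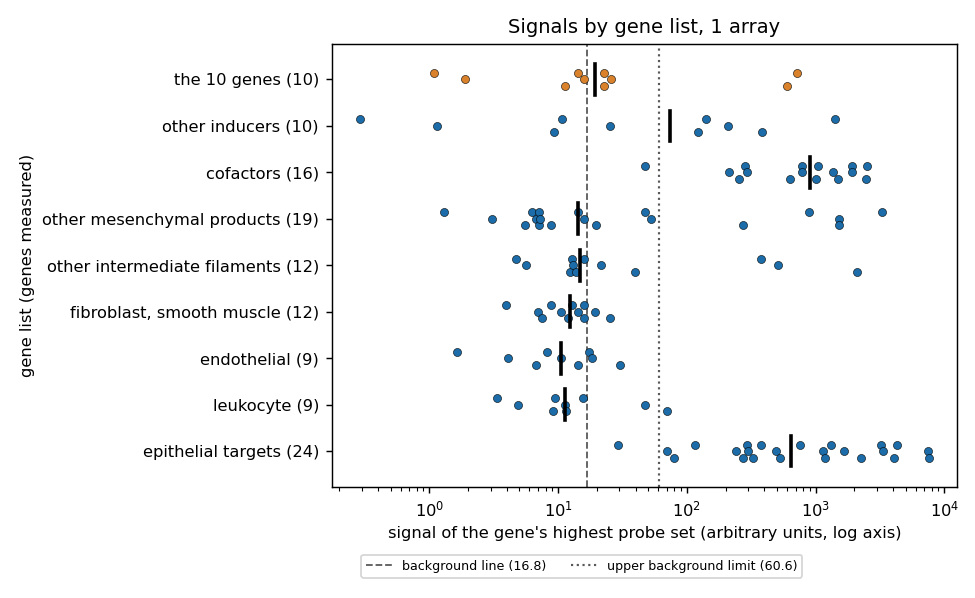
Signal of the highest probe set of each measured gene (log axis, arbitrary units) in 9 lists, with a vertical bar at each list's median and the thresholds at 16.8 and 60.6. The 10 genes have a median of 19.3, with Fn1 and Sparc apart from the other 8. The epithelial targets, listed with their regulators, have a median of 643.

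Epithelial genes that these factors are known to repress, listed together with regulators of such genes, gave signal. Of the 24 epithelial genes on the list, all exceeded the line and 23 (95.8%) the upper limit, beside 63.3% and 47.5% of all genes, with a median highest signal of 643. Krt18 read 7600.2, Krt8 from 5844 to 7422 on 3 probe sets and Krt19 4306. The lowest were Cdh3, the P-cadherin gene, at 70.5, and Ovol1, an epithelial transcription factor gene, at 29.3. Cdh1, the best known target of SNAI and ZEB repression, read 4069.5. The tight junction genes Cldn4 and Cldn7 read 1150 and 3331, and Epcam, an adhesion gene, read 3219 and 265. The inducers read within the range of the background set, and all listed epithelial genes but Ovol1 had their highest probe set above it. Counted singly, 35 of the 46 epithelial probe sets were above the upper limit, beside 41.1% of all probe sets. Whether the inducer signals bear on those of the epithelial genes was not tested.

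The promoters of 3 of these targets are shown because they carry the box that SNAI and ZEB proteins bind. Like the windows of Snai1, Vim and Sparc, they were picked after the boxes per gene had been counted, so they are examples and not a sample of the list. The windows lie at chr17:87635729-87636028 on the plus strand for Epcam, chr5:134946885-134947184 on the minus strand for Cldn4 and chr11:69965171-69965470 on the plus strand for Cldn7, all in GRCm38.p6. They are printed 5′ to 3′ on the gene's strand, with CACCTG, or CAGGTG where it reads on the other strand, in capitals.
Epcam: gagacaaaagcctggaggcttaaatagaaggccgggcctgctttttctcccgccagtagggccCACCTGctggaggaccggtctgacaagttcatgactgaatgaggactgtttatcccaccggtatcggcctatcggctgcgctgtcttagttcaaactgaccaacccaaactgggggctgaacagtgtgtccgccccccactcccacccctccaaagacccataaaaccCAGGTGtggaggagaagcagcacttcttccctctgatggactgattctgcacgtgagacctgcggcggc
Cldn4: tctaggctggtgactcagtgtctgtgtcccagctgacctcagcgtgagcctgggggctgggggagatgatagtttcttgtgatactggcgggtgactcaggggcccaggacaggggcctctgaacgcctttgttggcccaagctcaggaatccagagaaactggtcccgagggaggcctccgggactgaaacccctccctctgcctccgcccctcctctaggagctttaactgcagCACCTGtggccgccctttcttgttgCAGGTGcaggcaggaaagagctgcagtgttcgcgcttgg
Cldn7: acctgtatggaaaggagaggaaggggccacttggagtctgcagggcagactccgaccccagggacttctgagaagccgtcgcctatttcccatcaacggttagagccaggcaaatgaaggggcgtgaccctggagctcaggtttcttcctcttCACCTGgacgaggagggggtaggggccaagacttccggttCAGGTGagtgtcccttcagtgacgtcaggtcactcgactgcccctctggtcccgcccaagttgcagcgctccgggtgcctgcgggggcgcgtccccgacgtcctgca
Each window held 2 boxes, 1 on each strand. In Epcam they begin 187 and 19 bases before the start, and in Cldn7 97 and 57 bases before it. In Cldn4 they lie on either side of the start, beginning 14 bases before it and at base 12 after it. Cldn7 has another window in the table, which held none, and the one with boxes was printed for that reason.

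**Figure D4:**
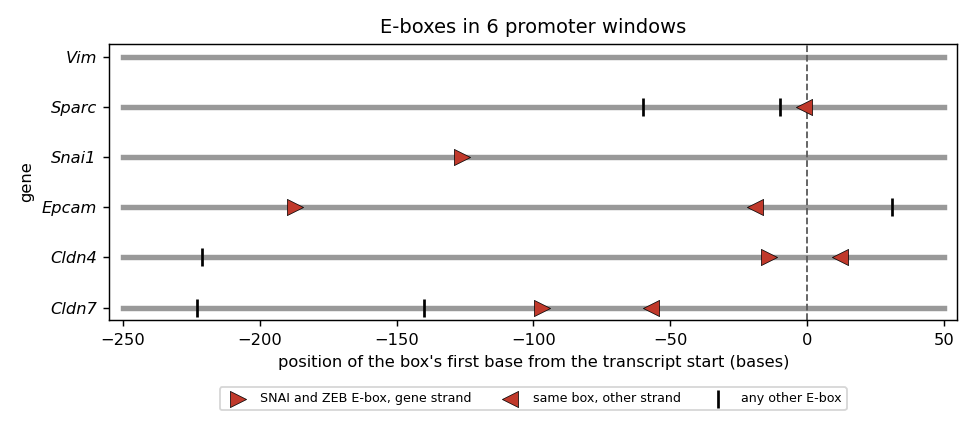
Positions of E-boxes in the 6 printed promoter windows, in bases from the transcript start (dashed line), with red triangles for the SNAI and ZEB box by strand and black ticks for any other CANNTG. The 3 epithelial genes have 2 triangles each, Snai1 and Sparc 1 each and Vim none.

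The box was searched as CACCTG on both strands in every window of the RefSeq table, which is a special case of CANNTG. Of the 24 epithelial genes, 15 had a window, and 13 of these (86.7%) held the box, beside 22.6% of all 27025 genes. Among the 10 of them with a single window 8 held it, beside 19.8% of the 11720 measured genes with a single window. At least 2 boxes in a window were found in 7 of 15 (46.7%), beside 3.56% of 14368 measured genes. These last 2 comparisons, and those by signal and base composition given next, were added after the share of 13 in 15 had been seen. The exceptions to it, Cgn and Ovol2, were named after the search. Cdh1 was among the listed genes without a window, so it was not searched. The list was drawn from genes known as targets of these repressors and from their regulators. Some of the targets were recognised by such boxes, so the list's share is not independent of that knowledge. A match is a stretch of letters and not evidence of binding in these cells.

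In the other lists the box was found in 1 of 12 further mesenchymal products with a window (8.33%, 95% Wilson interval 1.49 to 35.4%), 1 of 8 other intermediate filament genes (12.5%) and 2 of 6 leukocyte genes (33.3%), beside 22.6% of all genes. It was found in none of 12 cofactors (interval 0 to 24.2%), 6 other inducers (0 to 39.03%), 5 fibroblast or 5 endothelial genes. With so few windows these intervals include the share of all genes. Set by signal on this array, the box was present in 20.5% of the 7124 measured genes above the upper limit and in 25.4% of the 4995 not above the line. The base composition of the windows differed between those groups, with a median GC content of 61.7% and 53%, and 60.7% in the epithelial genes. The part of base composition in these shares was not tested.

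**Figure D5:**
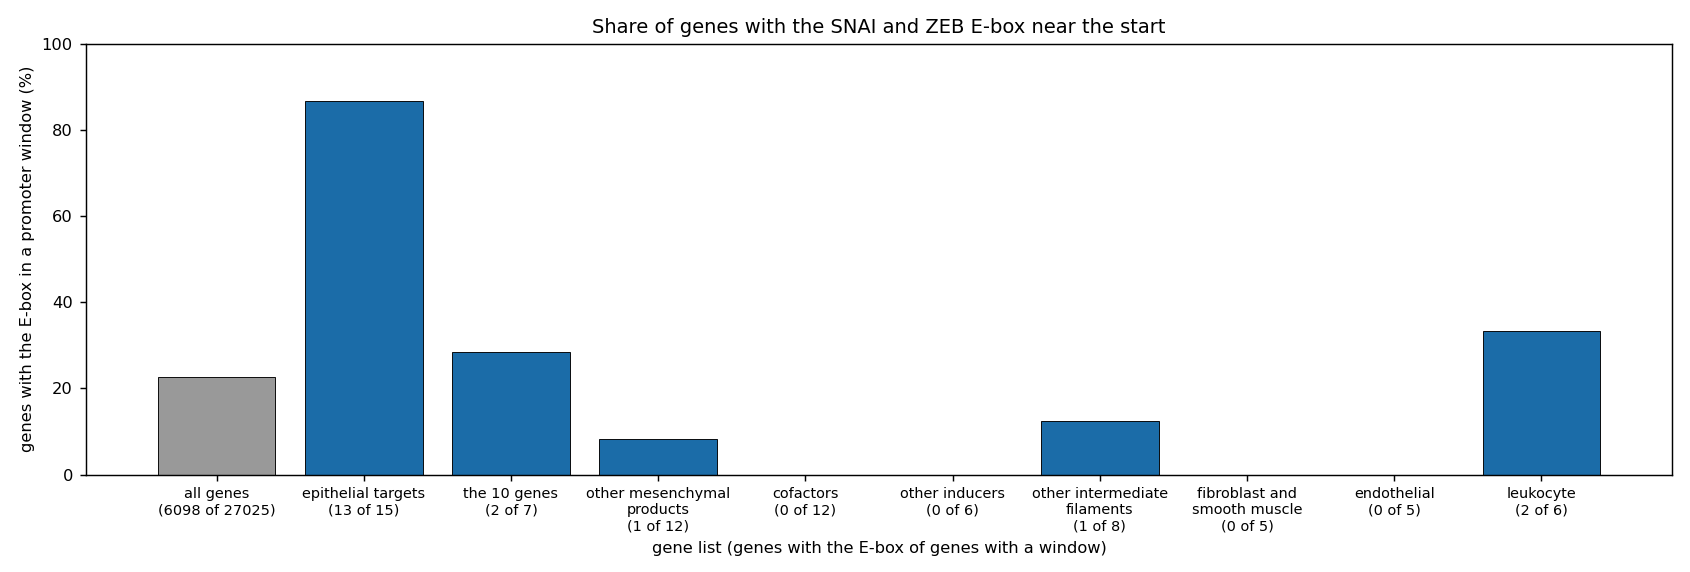
Share of genes (percent, bars from 0) with at least 1 CACCTG on either strand in a promoter window, for all genes of the RefSeq table and 9 lists, with the counts under each bar. The epithelial targets, listed with their regulators, reach 86.7% (13 of 15), beside 22.6% of all genes and 28.6% (2 of 7) of the 10 genes.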

How the data were processed

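Total RNA of 1 cultured sample was hybridized to an Affymetrix 3′ array. The authors deposited 1 linear signal intensity for each probe set. Per the submitters' processing notes, they used Affymetrix Expression Console. Which algorithm, background correction or scaling it ran is not given in the sources used here, and any background subtraction there would change dim signals most. Scanner files and detection calls were not used here, and 1 array gives no measure of precision.

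Probe sets were named from the platform annotation (34945 with 1 gene, 932 with several, 9160 with no name here), with symbols updated by gene ID from a RefSeq table for 34741. The kind of sequence record was read from the accession prefix in that annotation. Lists held 12 other inducers (2 not analysed here), 22 other products (3 not analysed here) and 16 cofactors. They also held 24 epithelial targets and regulators of these, 12 other intermediate filaments and markers of other cell types. The members and lists were chosen with earlier results of these data known. Named genes were the members, the 3 highest and 2 lowest of each list, SNAI and PRRX family members and the epithelial markers, and any other gene, such as the 3 lung genes, is marked where it appears. With 1 sample no likeness of patterns across samples was computed. Promoter windows are from RefSeq (GRCm38.p6), with entries for 7 of the 10 members and none for Zeb1, Snai2 or Fn1. All 1012 overlapping minus-strand windows checked were in gene orientation. The calling functions and the motif search were tested on simulated data. Python 3.11.15, numpy 2.4.6, pandas 2.3.3, scipy 1.17.1 and matplotlib 3.10.9 were used.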

Additional observations from a re-analysis of the deposited data

How the results depend on the processing

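The calls of Twist1, Twist2, Zeb1 and Fn1 kept their side of the line under every alternative run. A line at the 90th percentile of the background set (14.1) put Snai1 and Prrx1 above it, by 0.16 and 0.013 (log2), and 4 inducers in all, with 5 fibroblast genes. Background from receptors alone (15.1) put Snai1 0.07 above it, with 4 fibroblast genes. At the 99th percentile (36.9), Zeb2, Snai2 and Vim lay below the line at -0.69, -0.52 and -0.69, leaving 2 members, 0 inducers, 0 fibroblast and 0 endothelial genes. Keratin-associated proteins alone (20.8) and the median of all probe sets (22.4) each left 1 fibroblast and 1 endothelial gene. With the median of a gene's probe sets, Zeb2 and Vim lay at -1.52 and -0.58, with 3 members, 1 inducer and 0 fibroblast genes above the line. With the lowest probe set, Zeb2, Snai2, Vim and Sparc lay at -3.02, -0.48, -1.03 and -0.048, leaving 1 member, 0 inducers, 5 other products, 3 intermediate filament and 0 fibroblast genes. Without _s_at, _x_at and _a_at probe sets, Snai2 lay at -0.48, with 1 inducer, 3 intermediate filament and 0 fibroblast genes above. With RefSeq mRNA probe sets alone, an alternative chosen after seeing the data, Zeb2 and Snai2 lay at -1.81 and -0.48, with 1 of 7 members and 0 of 6 inducers above. These changes follow from the line moved or the probe sets removed, and moving the line changes the share of all probe sets too. Of all one-gene probe sets, 35.5% read at or below 14.1, 37.0% at or below 15.1, 43.0% at or below 20.8 and 52.0% at or below 36.9. Beside the counts by lowest probe set, 8558 of all 18194 genes had every probe set above the line. Shares of all genes under the other alternatives are not given here. Admitting probe sets of several genes could change no member, since none of them held a member. It took the other products above the line from 8 of 19 to 9 of 20 measured genes. The identity of paralogous proteins was planned and not run. The members above the upper limit numbered 2 with the second highest background probe set, 42.2, as the limit. They also numbered 2 with the median of a gene's probe sets set against the unmoved limit. The third highest background probe set, 21.0, was not tried as a limit. Zeb2, Snai2 and Vim had highest signals above it, at 22.8, 25.7 and 22.8. Restricting windows to the 250 bases before the start gave 73.3% of epithelial genes with the box, and any CANNTG 93.3%, beside 19.4% and 74.99% of all genes. Asking for at least 2 boxes, added after the share was seen, gave 46.7%.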
